A study of Mus musculus with 15 samples.

Results

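Jejunal gene expression in mice that lacked Aster-B and Aster-C and also ate ezetimibe was set against that of wild-type mice given neither intervention. The 4 libraries of knockout mice on ezetimibe (KO ezetimibe) and the 4 of wild-type mice on the control diet (WT control) were chosen by their labelled genotype and diet, and they are 8 of the 15 libraries of the study. All genes with a normalised count of at least 10 in at least 3 of the 15 libraries were compared, which left 14299 of 26844. The mice were male, on the C57BL/6 strain and 13 to 15 weeks old, and the RNA came from distal jejunum. KO mice carry a whole-body deletion of both Aster genes, so it is not limited to the epithelium. Every group ate 0.08% cholesterol, and the ezetimibe groups had 0.01% of the drug in the same diet. The remaining groups, WT ezetimibe (4 libraries) and KO control (3 libraries), each carry 1 of the 2 interventions, and their values are given where they stand between the 2 ends. The labels do not say whether each library came from a separate mouse, so the p-values rest on the spread between libraries. That spread was estimated from all 15 libraries within their groups, not only from the 8 compared.

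Enterocytes take up cholesterol from the gut lumen through NPC1L1, a brush border transporter that ezetimibe blocks. Aster proteins, products of the Gramd1 genes, then move it onward from the plasma membrane into the endoplasmic reticulum, where it is esterified for export and where it is sensed. When sterol in that membrane is low, the SCAP and SREBP-2 complex leaves for the Golgi and cleaved SREBP-2 switches on genes of cholesterol synthesis and uptake. When sterols are plentiful, INSIG proteins hold the complex back, and oxysterols activate liver X receptors (LXR), which switch on cholesterol efflux transporters such as ABCA1.

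Depth was between 13855034 and 19307079 recovered reads per library, and within a group any pair of libraries had r of 0.966 to 0.987 over the log2 levels of all tested genes. Tissue identity was checked with 12 enterocyte markers, which were all tested and summed to 672027 to 975120 normalised counts per WT control library and 869891 to 1034330 per KO ezetimibe library. The 9 pancreas markers in the table summed to at most 629 in WT control and 218 in KO ezetimibe. The first principal component, fitted to all 15 libraries, held 27.7% of the variance. WT control replicates 4 and 2 stood at one end of it (52.6 and 34.2) and KO ezetimibe replicate 3 at the other (-58.6), so results that rest on these libraries are given with and without them.

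The knockout was checked at its targets. Gramd1c (ENSMUSG00000036292), the Aster-C gene on the minus strand of chromosome 16 (mm10, 43980350 to 44063345), had 1287, 1059, 1845 and 1339 normalised counts in WT control replicates 1 to 4 and 71.8, 144, 120.3 and 156 in KO ezetimibe replicates 1 to 4. The groups did not overlap, and each KO ezetimibe library lay far below the lowest WT control library. The log2 fold change was −3.51 ± 0.229 (SE, limma adjusted p = 5.62e-07), where fold changes here and below are on the log2(normalised count + 1) scale. Gramd1b (ENSMUSG00000040111), the Aster-B gene on the minus strand of chromosome 9 (40293233 to 40531383), had 3784, 2274, 4046 and 2608 in WT control and 1763, 1754, 2086 and 1744 in KO ezetimibe. The lowest WT control library was close above the highest KO ezetimibe library. The fall of 0.75 ± 0.162 in log2 (SE) passed the test (limma adjusted p = 0.0283), but not when any of 5 libraries was left out (WT control replicates 3 and 4, KO ezetimibe replicates 1 to 3), with log2 fold changes between −0.90 and −0.62 over the 8 fits that each left out 1 compared library. KO control libraries held 1247, 962 and 1229 counts of Gramd1b, below every KO ezetimibe library. The deleted exons are not known here, and reads outside them would still be counted. Gramd1a, the Aster-A gene, which the labels do not name as deleted, had 243 ± 46.5 normalised counts (SD, n = 4) in WT control and 199 ± 29.1 (SD, n = 4) in KO ezetimibe, with overlap and a log2 fold change of −0.28 (limma adjusted p = 0.312).

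Across all genes, 496 of 14299 passed the limma test at an adjusted p under 0.05 (3.47%), 314 higher in KO ezetimibe (2.2%) and 182 lower (1.27%). Those that rose did so by a median of 0.59 in log2 and those that fell by a median of 0.90, and 127 called genes changed by more than 2-fold, 49 up and 78 down. An unadjusted limma p under 0.05 was reached by 3857 of the 14299, the background for the unadjusted counts of gene lists below. The groups did not overlap for 466 of the 496, but these were picked by a test on the same libraries, so this adds no separate support. Over all tested genes the groups did not overlap for 12.2% (6.58% with every KO ezetimibe library above every WT control library and 5.6% with every one below). In the same model 53 genes differed between KO control and WT control and 31 between WT ezetimibe and WT control, comparisons that share the WT control libraries. The number of calls moved widely with the libraries used. Leaving out WT control replicate 4 gave 60 calls, replicate 2 of that group 63 and replicate 1 of it 1987, and leaving out KO ezetimibe replicate 3 gave 80. Calls that were higher made up 63.3% of the total, a share that was 50.6% with TMM scaling and 51.2% with DESeq2 on the recovered reads.

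**Figure D1:**
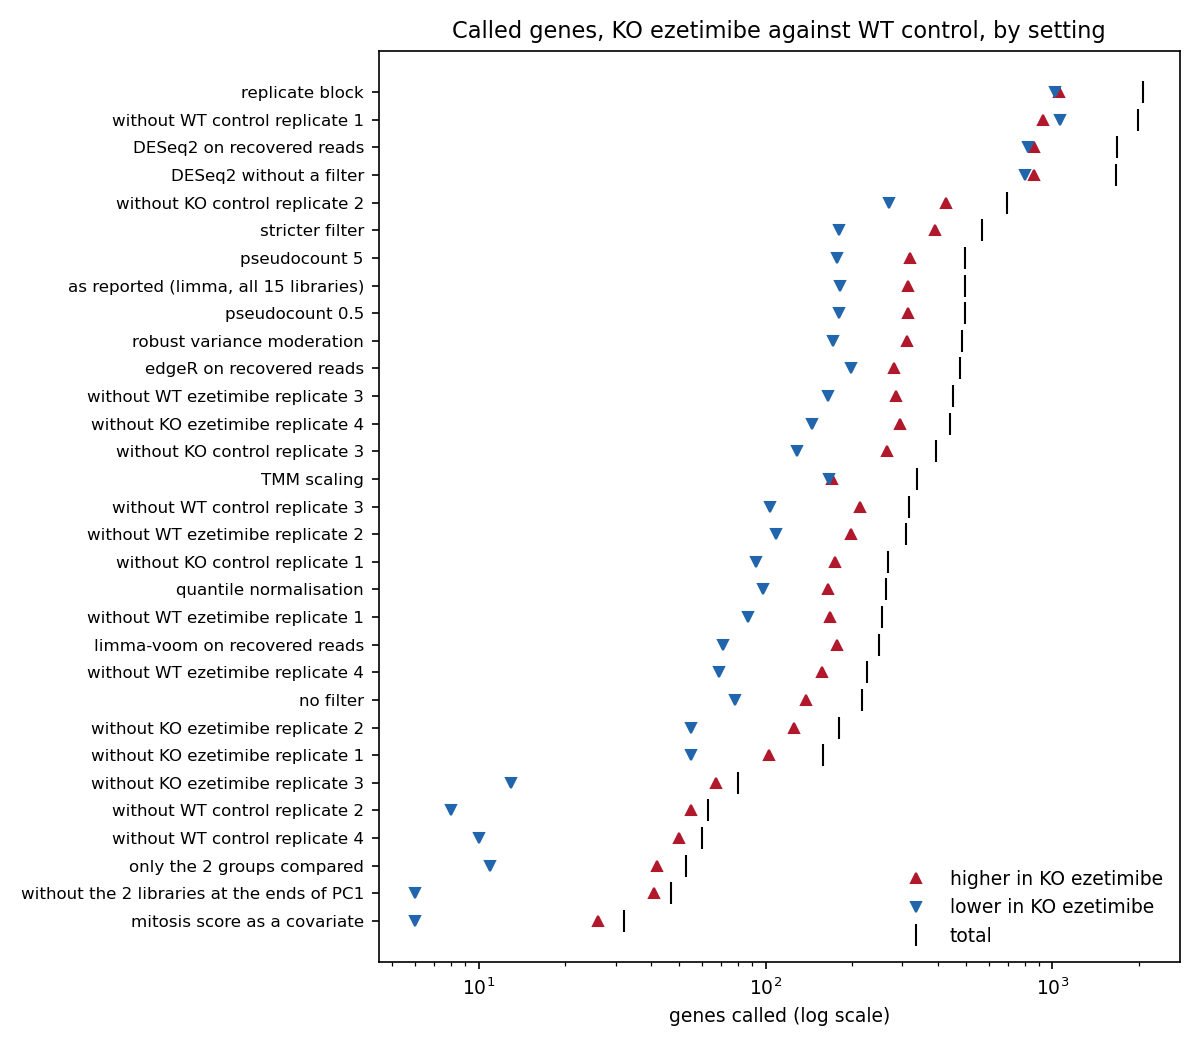
Number of genes that passed the test for KO ezetimibe against WT control (horizontal axis, log scale) under the reported settings and each alternative (vertical axis, ordered by the total). Triangles give the genes higher and lower in KO ezetimibe and vertical ticks the total, which runs from 32 with a mitosis score as a covariate to 2073 with the replicate number as a block, around the reported 496.

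A smaller set of 50 genes passed the test in all 15 libraries and again in each of the 8 fits that left out 1 compared library, 45 of them higher and 5 lower. Of the 20 cholesterol synthesis genes 12 were in this set, and of the 14 genes of sterol sensing and uptake 4 were. The 5 that fell were Abca1, Abcg5, Gramd1c, Agr2 and Anxa5. Genes outside the prepared lists were also in it, and those named here were chosen after their values were seen. Slc25a1, the mitochondrial citrate carrier that supplies carbon for sterol and fatty acid synthesis, had 2224, 2150, 1975 and 1727 normalised counts in WT control and 3119, 2929, 3298 and 3156 in KO ezetimibe, with no overlap (log2 fold change 0.64, limma adjusted p = 0.00233). Mfsd2a, a transporter of lysophosphatidylcholine, rose by 1.15 (limma adjusted p = 0.00233), and Erg28, an endoplasmic reticulum protein that in yeast tethers sterol synthesis enzymes, rose by 0.58 (limma adjusted p = 0.009). Rdh11, a retinol dehydrogenase, rose by 0.65 (limma adjusted p = 0.00714), Pgrmc2, a haem-binding membrane protein, by 0.73 (limma adjusted p = 0.00188). Anxa5, a phospholipid-binding annexin, fell by 1.01 in log2 (limma adjusted p = 0.00834). The set is defined only by leaving out single libraries, and other settings ended the call of some of its members. With the mitosis score as a covariate, limma adjusted p was 0.092 for Slc25a1, 0.0977 for Mfsd2a, 0.0661 for Pgrmc2, 0.265 for Agr2 and 0.26 for Anxa5. In that fit it was 0.362 for Npc1l1, the gene of the drug's target, and 0.135 for Ccne2, a cyclin of entry into S phase. Without WT control replicate 4 and KO ezetimibe replicate 3 together, limma adjusted p was 0.0632 for Anxa5, 0.12 for Npc1l1 and 0.0687 for Ccne2.

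Cholesterol efflux showed the lowest fold change among called genes. Abca1 (ENSMUSG00000015243, chromosome 4, 53030787 to 53159895, minus strand), which loads cellular cholesterol onto lipid-poor apolipoproteins, had 2299, 1556, 1735 and 1446 normalised counts in WT control. In KO ezetimibe it had 115, 84.7, 105 and 98.0. The KO ezetimibe mean was 0.0572 of the WT control mean, and the log2 fold change was −4.10 ± 0.18 (SE, limma adjusted p = 2.99e-09). The groups with 1 intervention lay between these ends, at 213, 128, 196 and 196 in WT ezetimibe and 601, 439 and 641 in KO control, and no library of one group overlapped another. Their log2 fold changes against the same WT control libraries were −3.26 for ezetimibe alone and −1.64 for Aster loss alone.

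The other LXR genes moved less. Abcg5, which with Abcg8 forms the transporter that returns sterols to the gut lumen, had 6011, 4697, 5591 and 4375 in WT control and 3639, 2920, 3302 and 2610 in KO ezetimibe. These groups did not overlap, and Abcg5 fell by 0.73 ± 0.135 in log2 (SE, limma adjusted p = 0.0157). Its partner Abcg8 differed by −0.62 ± 0.194 in log2 (SE, limma adjusted p = 0.0741) with overlap. For Abcg5 the values were −0.83 with ezetimibe alone and −0.11 with Aster loss alone. Nr1h2, which encodes the receptor LXR beta, rose by 0.36 (limma adjusted p = 0.029), and this was lost without WT control replicate 2 or 4 or without KO ezetimibe replicate 1 or 3 (log2 fold changes 0.32 to 0.39 over the 8 fits). Abcg1 and Nr1h3, named after their values were seen, had log2 fold changes of −0.38 (limma adjusted p = 0.259) and −0.07 (limma adjusted p = 0.658). Of the 12 LXR genes, 1 rose and 2 fell, with a median log2 fold change of −0.32 against −0.00759 over all genes tested.

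**Figure D2:**
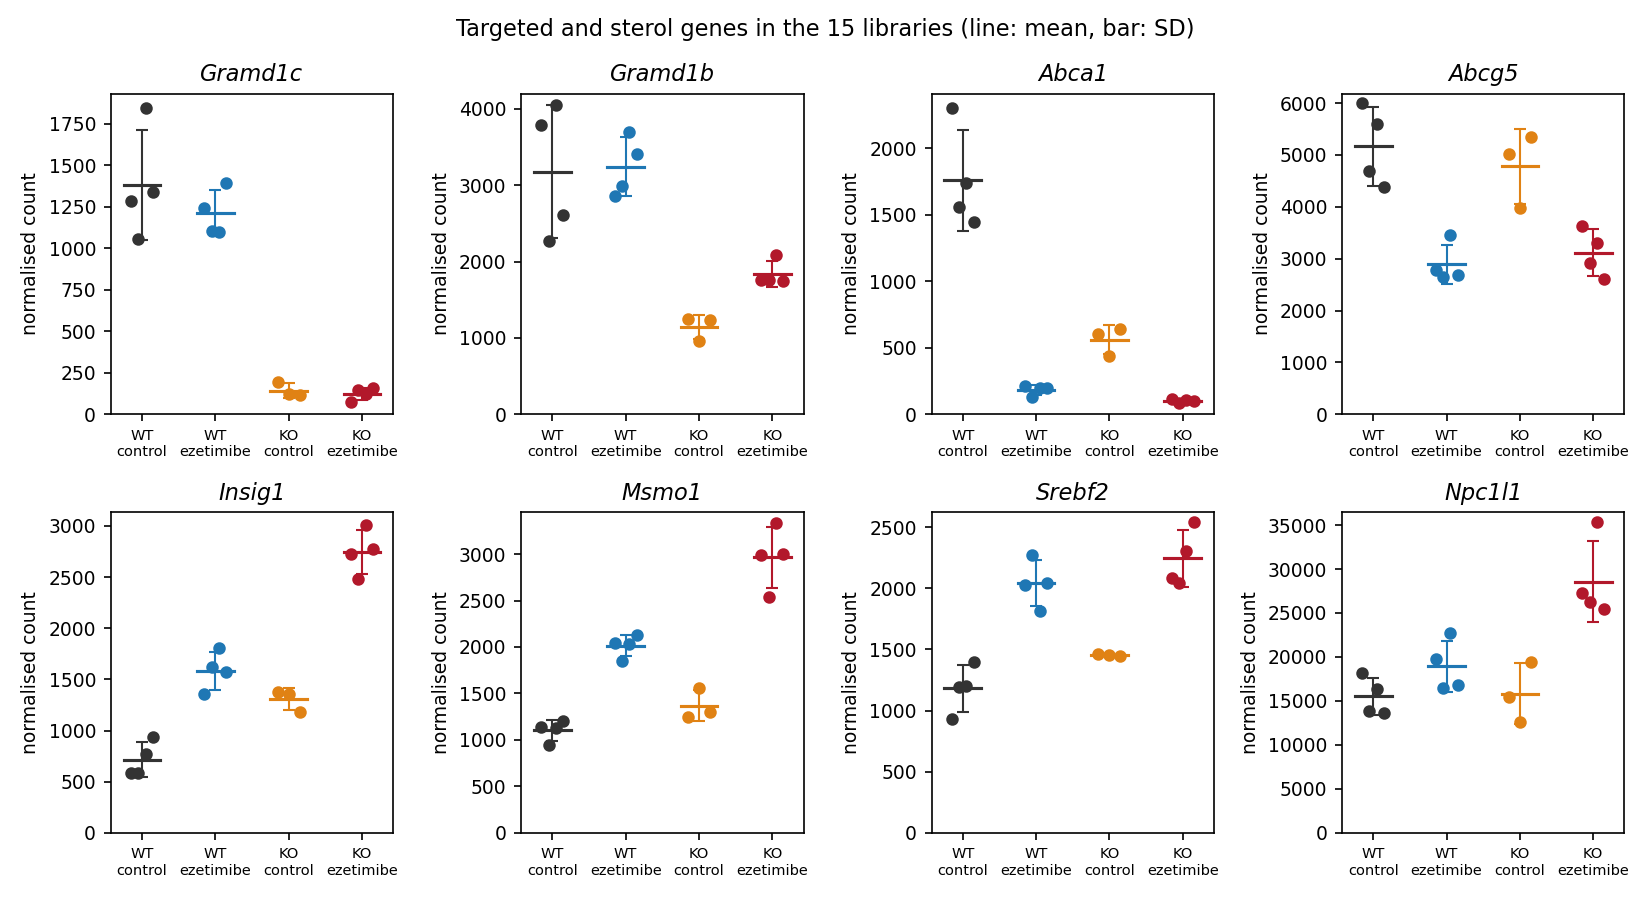
Normalised counts (vertical axes, linear from 0) of 8 targeted and sterol genes in each of the 15 libraries, by group (horizontal axes), with points for libraries, lines for means and bars for SD. Abca1 steps down from WT control to KO control, WT ezetimibe and KO ezetimibe, whereas Insig1 and Msmo1 are highest in KO ezetimibe.

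Cholesterol synthesis rose as a block. Of the 20 genes in this list, 17 rose and none fell, and their median log2 fold change was 1.16 against −0.00759 over all genes tested. All 20 fold changes were positive, and for 19 of them every KO ezetimibe library lay above every WT control library. The mean log2 level of the list ran from 8.56 to 8.99 in WT control and from 9.75 to 10.07 in KO ezetimibe, with no overlap. Between 12 and 17 genes were called when 1 compared library was left out, the fewest without WT control replicate 2, and 12 were called with a median of 1.08 when WT control replicate 4 and KO ezetimibe replicate 3 were both left out.

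The early, cytosolic steps held some of the firmest calls. Hmgcs1, which makes the HMG-CoA from which mevalonate is formed, had 1276, 1434, 1766 and 2233 normalised counts in WT control and 4318, 3805, 4504 and 5008 in KO ezetimibe, and every KO ezetimibe library was well above the highest WT control library (log2 fold change 1.42 ± 0.154, SE, limma adjusted p = 0.000169). Mvk, mevalonate kinase, had 129, 163, 146 and 159.97 in WT control and 358, 338, 438 and 414 in KO ezetimibe. The Mvk groups were far apart, and its rise was 1.36 ± 0.111 in log2 (SE, limma adjusted p = 5.75e-06).

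The following steps build and close the sterol skeleton. Fdft1, squalene synthase, the first enzyme committed to sterols, had 267, 476, 432 and 525 in WT control and 1300.1, 1150.4, 1284 and 1476 in KO ezetimibe. Sqle, squalene epoxidase, had 339.9, 631, 847 and 749.9 in WT control and 1624, 1986, 2788 and 2087 in KO ezetimibe, the largest rise in the list. Both separated fully, by log2 fold changes of 1.65 ± 0.169 for Fdft1 (SE, limma adjusted p = 9.58e-05) and 1.77 ± 0.225 for Sqle (SE, limma adjusted p = 0.000609). WT control replicate 1 was the lowest library for both genes. Cyp51, lanosterol demethylase, rose by 1.67 ± 0.191 (SE, limma adjusted p = 0.00022). Msmo1, a C4-methylsterol oxidase, had 1137, 945, 1124 and 1201 in WT control and 2993, 2538, 3333 and 2997 in KO ezetimibe. Msmo1 libraries were tight within each group, and its log2 fold change of 1.43 ± 0.103 (SE) had the smallest adjusted p of the list (limma, 1.25e-06).

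Other synthesis genes gave smaller or less certain changes. Idi1, Mvd, Pmvk, Nsdhl, Tm7sf2 and Sc5d rose by 1.43, 1.28, 1.17, 1.15, 1.13 and 0.71 in that order and were called in each of the 8 fits that left out 1 compared library. Sc5d lies within 2 Mb of Gramd1b, and it was not called with the mitosis score as a covariate (limma adjusted p = 0.0965). Of the 17 called members, 5 were lost when at least 1 library was left out, among them Hsd17b7, Fdps and Lss. Lss, lanosterol synthase (0.80), remained only without WT control replicate 1, at 0.63 to 0.95 over the 8 fits. Fdps, farnesyl diphosphate synthase (1.24), was lost without 4 of the 8 libraries (WT control replicates 2 and 4, KO ezetimibe replicates 1 and 3), at 1.01 to 1.43. Hsd17b7, a keto-reductase of the pathway (0.89), was lost without WT control replicate 2 or KO ezetimibe replicate 3, at 0.80 to 1.03. Acat2, Dhcr7 and Ebp did not pass the test, at log2 fold changes of 0.52, 0.35 and 0.25 (limma adjusted p = 0.0716, 0.0578 and 0.118).

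**Figure D3:**
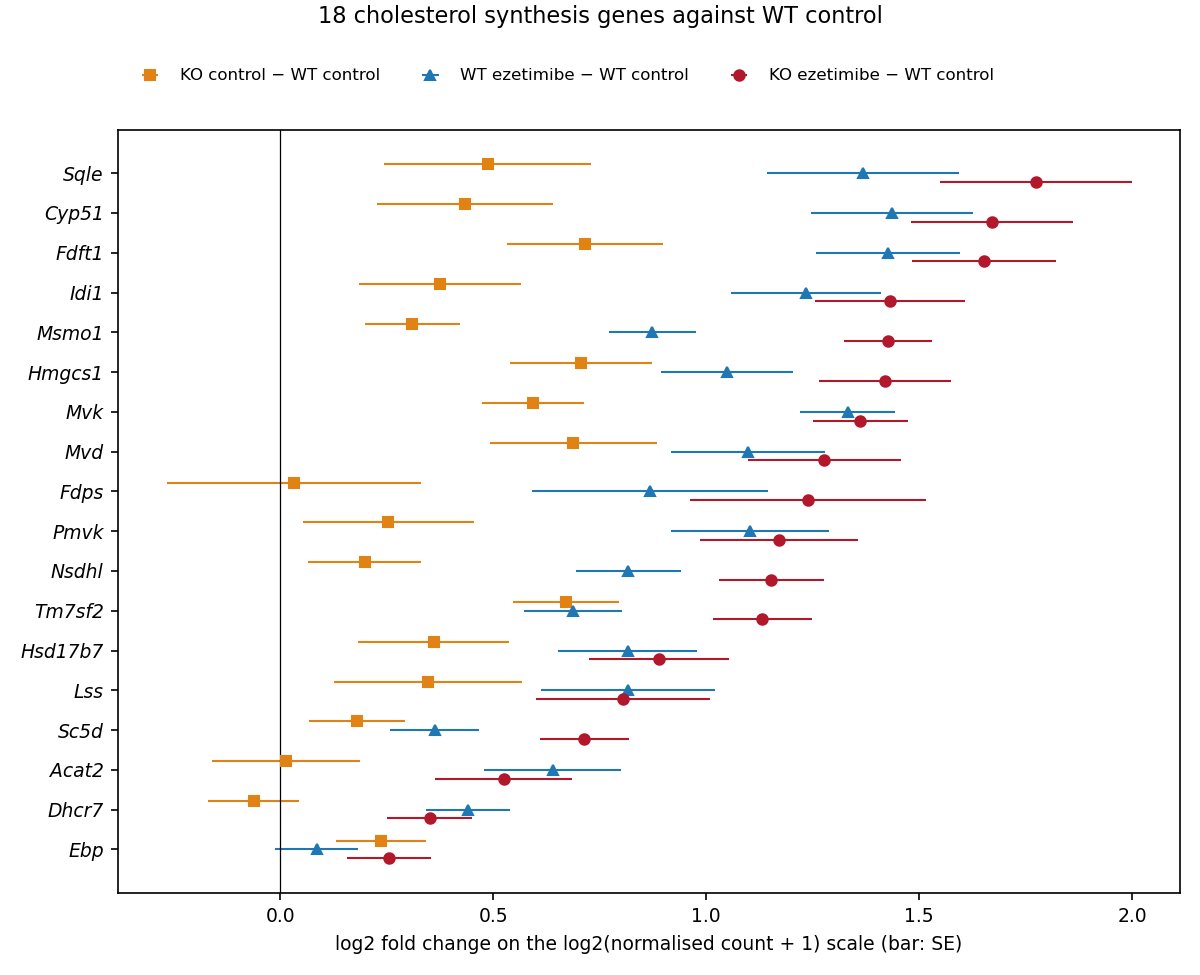
Log2 fold change against WT control (horizontal axis, bars SE) of 18 of the 20 cholesterol synthesis genes (vertical axis, ordered by the combined change) for KO control, WT ezetimibe and KO ezetimibe, 3 comparisons that share the WT control libraries. The combined change is positive for each gene shown, and over the whole list of 20 the medians are 0.33 for Aster loss alone, 0.84 for ezetimibe alone and 1.16 for both.

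Because these genes moved together, their promoters were read from RefSeq (GRCm38.p6, windows from 250 bases before to 50 after a gene's start), which held 15 of the 20 synthesis genes. Windows are shown for 3 synthesis genes with small p-values, for Insig1, and for Npc1l1, the gene of the drug's target. Capitals mark the CCAAT box bound by NF-Y, a partner of SREBP (CCAAT on either strand, so also ATTGG), and a sterol regulatory element (TCACNCCAC on either strand). The sequences, each 5′ to 3′ on the gene's strand, are from chr13:119690101-119690400 (plus) for Hmgcs1, chr5:114444019-114444318 (plus) for Mvk, chr8:64733529-64733828 (minus) for Msmo1, chr5:28071162-28071461 (plus) for Insig1 and chr11:6230196-6230495 (minus) for Npc1l1.
Hmgcs1: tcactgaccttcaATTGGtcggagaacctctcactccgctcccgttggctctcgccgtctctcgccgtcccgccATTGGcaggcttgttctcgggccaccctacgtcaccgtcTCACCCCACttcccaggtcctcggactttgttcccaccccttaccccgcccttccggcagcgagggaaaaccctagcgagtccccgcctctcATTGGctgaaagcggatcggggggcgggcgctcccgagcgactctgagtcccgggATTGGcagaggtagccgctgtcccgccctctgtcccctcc
Mvk: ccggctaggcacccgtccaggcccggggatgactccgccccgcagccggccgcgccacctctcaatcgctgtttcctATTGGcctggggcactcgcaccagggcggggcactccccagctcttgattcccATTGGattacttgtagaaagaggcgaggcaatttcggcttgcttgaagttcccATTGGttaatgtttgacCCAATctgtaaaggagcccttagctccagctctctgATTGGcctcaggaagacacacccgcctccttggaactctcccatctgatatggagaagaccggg
Msmo1: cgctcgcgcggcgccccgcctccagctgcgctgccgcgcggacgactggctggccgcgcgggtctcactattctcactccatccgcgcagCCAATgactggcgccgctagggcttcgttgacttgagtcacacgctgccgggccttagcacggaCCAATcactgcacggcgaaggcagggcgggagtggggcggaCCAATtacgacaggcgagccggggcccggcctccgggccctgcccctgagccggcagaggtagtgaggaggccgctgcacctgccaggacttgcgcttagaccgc
Insig1: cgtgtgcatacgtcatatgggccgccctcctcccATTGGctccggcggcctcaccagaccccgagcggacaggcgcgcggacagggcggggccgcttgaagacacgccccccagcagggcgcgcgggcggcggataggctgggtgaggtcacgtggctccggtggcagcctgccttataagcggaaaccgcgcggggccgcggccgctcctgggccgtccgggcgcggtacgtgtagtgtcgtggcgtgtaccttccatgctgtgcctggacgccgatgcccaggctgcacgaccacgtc
Npc1l1: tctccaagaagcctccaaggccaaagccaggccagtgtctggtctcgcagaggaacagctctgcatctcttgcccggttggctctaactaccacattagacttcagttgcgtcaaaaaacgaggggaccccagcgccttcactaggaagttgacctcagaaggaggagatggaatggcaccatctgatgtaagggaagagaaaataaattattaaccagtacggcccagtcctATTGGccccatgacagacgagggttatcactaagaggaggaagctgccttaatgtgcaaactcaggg
A CCAAT box was present in 14 of the 15 synthesis genes (93.3%), against 41.1% of 27025 genes and 37.4% of all 32851 windows of the same length. Hmgcs1 held 4, Mvk 5, Msmo1 3, and Insig1 and Npc1l1 1 each. The letters TCACNCCAC were found in 1 of the 15 (6.67%), in Hmgcs1 137 bases before the start, against 1.44% of the 27025 genes and 1.24% of all windows. The 27025 were all genes with a window, not only genes tested here, and shares among the tested genes were not counted. Of the 14 genes of sterol sensing and uptake 9 had a window, of which 6 (66.7%) held a CCAAT box and 0 the letters TCACNCCAC. The motifs do not overlap in these windows, and a match describes the letters, not a bound site.

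Genes that sense and import sterols were also higher. Insig1, the sterol-regulated brake on SREBP processing and itself an SREBP target, had 581, 583, 767 and 933 normalised counts in WT control and 2721, 2479, 3013 and 2772 in KO ezetimibe. The lowest KO ezetimibe library exceeded the highest WT control library by more than 2-fold. The log2 fold change was 1.96 ± 0.138 (SE, limma adjusted p = 1.1e-06). WT ezetimibe libraries held between 1353 and 1803 counts of Insig1 and KO control libraries between 1184 and 1374, with log2 fold changes of 1.17 and 0.89 against WT control.

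Srebf2, which encodes SREBP-2, had 932, 1195, 1200.3 and 1399.99 in WT control and 2082, 2048, 2306 and 2545 in KO ezetimibe. These groups did not overlap, and Srebf2 rose by 0.93 ± 0.113 (SE, limma adjusted p = 0.000428). Npc1l1 (ENSMUSG00000020447, chromosome 11, 6211013 to 6230143, minus strand) had 18129, 13905, 16324 and 13664 in WT control and 27277, 26229, 35339.8 and 25474 in KO ezetimibe, with every KO ezetimibe library above every library of the other groups. Npc1l1 rose by 0.88 ± 0.156 (SE, limma adjusted p = 0.0119) and was called in each of the 8 fits that left out 1 compared library. It was not called when WT control replicate 4 and KO ezetimibe replicate 3 were both left out (log2 fold change 0.72, limma adjusted p = 0.12). The single interventions gave log2 fold changes of 0.02 (Aster loss) and 0.29 (ezetimibe) for Npc1l1, neither of which passed the test (limma adjusted p = 0.979 and 0.999).

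Of the 14 genes of sterol sensing and uptake, 4 rose and none fell, with a median log2 fold change of 0.53. Stard4, a soluble sterol carrier, had a log2 fold change of 0.63 (limma adjusted p = 0.0781), and Npc1, which moves cholesterol out of lysosomes, of 0.44 (limma adjusted p = 0.176), both with overlap. Insig2 and Scap, named after their values were seen, stood at 0.33 (limma adjusted p = 0.141) and −0.02 (limma adjusted p = 0.931).

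Whether the combined difference departed from the sum, on the log2 scale, of the 2 single differences was tested by the interaction of genotype and diet. No gene passed in limma (0%), where 1004 genes had an unadjusted p under 0.05, nor in edgeR or limma-voom on the recovered reads, whereas DESeq2 called 5. For Abca1 the interaction was 0.80 ± 0.265 (SE, limma adjusted p = 0.681), so the departure of its combined fall from the sum of the single falls did not pass the test. For Mvk it was −0.56 ± 0.164 (SE) and for Npc1l1 0.57 ± 0.229 (SE), both at the same limma adjusted p of 0.681, and for Insig1 −0.10 ± 0.203 (SE, limma adjusted p = 0.919). The 6 genes with the smallest p were Fosb, Naip6, Bco1, Ccne2, Kansl1 and Cxcl16. Of these, Ccne2, which encodes the S-phase cyclin E2, was also called in the combined comparison. It had 159, 162, 135 and 173 counts in WT control and 309, 339, 439 and 245 in KO ezetimibe, with no overlap (log2 fold change 1.05, limma adjusted p = 0.0119). Its single differences were −0.26 for Aster loss and 0.03 for ezetimibe.

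Genes that move, store and export lipid showed few calls apart from the targeted genes. Over all tested genes 2.2% were called higher and 1.27% lower. Among 18 tested sterol transfer genes none rose and 3 fell, namely the targeted Gramd1c and Gramd1b and Stard5, a sterol-binding START protein, at a log2 fold change of −1.11 (limma adjusted p = 0.0451). The Stard5 groups overlapped, and its call was lost without any of 5 libraries (WT control replicates 2 and 4, KO ezetimibe replicates 1 to 3), with values from −1.34 to −0.89. None of 7 cholesterol ester genes passed (5 had an unadjusted p under 0.05, edgeR called 0 and DESeq2 4), and Soat2, the acyltransferase that esterifies dietary cholesterol in the enterocyte, stood at 0.46 (limma adjusted p = 0.0741), and Soat1 at −0.66 (limma adjusted p = 0.0703). None of 14 chylomicron assembly genes, 15 triglyceride resynthesis genes and 13 fatty acid synthesis genes passed, with medians of 0.08, 0.17 and 0.02. At an unadjusted p under 0.05 there were 1, 2 and 5 genes in these 3 lists (3857 of 14299 over all genes), edgeR called 0, and DESeq2 1, 1 and 2. Cideb, which enlarges lipoprotein particles, had the smallest p of the chylomicron list, with 987 ± 54.8 normalised counts (SD, n = 4) in WT control and 1185 ± 37 in KO ezetimibe (SD, n = 4, limma adjusted p = 0.0771).

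Fatty acid oxidation genes leaned lower, with 2 of 20 called lower, none higher, and a median of −0.17. The list's median was 0.29 with Aster loss alone and −0.06 with ezetimibe alone. Ppara, the fatty acid receptor that drives this programme, had 388, 339.7, 283 and 262 in WT control and 239.9, 165, 132 and 157 in KO ezetimibe, which left a narrow gap between the groups (log2 fold change −0.89, limma adjusted p = 0.0449). Cpt1a, the carnitine transferase that admits fatty acids to mitochondria, fell by 0.46 in log2 (limma adjusted p = 0.0449). Both calls were lost without WT control replicate 2 or 4 or KO ezetimibe replicate 2 or 3, and also without WT control replicate 3 or KO ezetimibe replicate 4 for Ppara and KO ezetimibe replicate 1 for Cpt1a. Over the 8 fits Ppara ran from −1.06 to −0.77 and Cpt1a from −0.53 to −0.35. Without WT control replicate 4 and KO ezetimibe replicate 3 together, neither was called (limma adjusted p = 0.214 for Ppara and 0.227 for Cpt1a). The same held with the mitosis score as a covariate (limma adjusted p = 0.337 and 0.265).

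Few genes of the absorptive surface changed, each of them upward. Of 14 brush border digestion genes 3 rose and none fell, with a median of 0.26. Lct, lactase, had 31180.1, 21109.6, 23808 and 25195 in WT control and 43437, 37851, 37577 and 41963 in KO ezetimibe, with no overlap (log2 fold change 0.68, limma adjusted p = 0.0379). Treh, trehalase, rose by 0.63 (limma adjusted p = 0.0212) and Ace, a peptidase of the brush border, by 0.67 (limma adjusted p = 0.0369). Hnf4a, a transcription factor of the differentiated enterocyte, had 13987, 11797, 13854 and 12439 in WT control and 17085, 18014, 23923 and 18340.1 in KO ezetimibe (0.56, limma adjusted p = 0.0288), again with no overlap. Lct and Hnf4a were the 2 called of 12 enterocyte markers (median 0.16). Slc34a2, a phosphate transporter, was the 1 called of 15 nutrient transporters and rose by 1.37 (limma adjusted p = 0.0237). None of the 14 brush border genes was called without WT control replicate 2 or 4 or without KO ezetimibe replicate 1 or 3, and Hnf4a and Slc34a2 were lost without WT control replicate 2 or 4 or KO ezetimibe replicate 3. The medians of the brush border list stayed between 0.16 and 0.29 over the 8 fits and fell to 0.09 without WT control replicate 4 and KO ezetimibe replicate 3 together. WT control replicates 2 and 4 were also the libraries with the most RNA of crypt cells, described next, and the part of crypt content in these results was not tested beyond a fit with a mitosis score as a covariate, where the list's median was −0.02 and none was called.

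**Figure D4:**
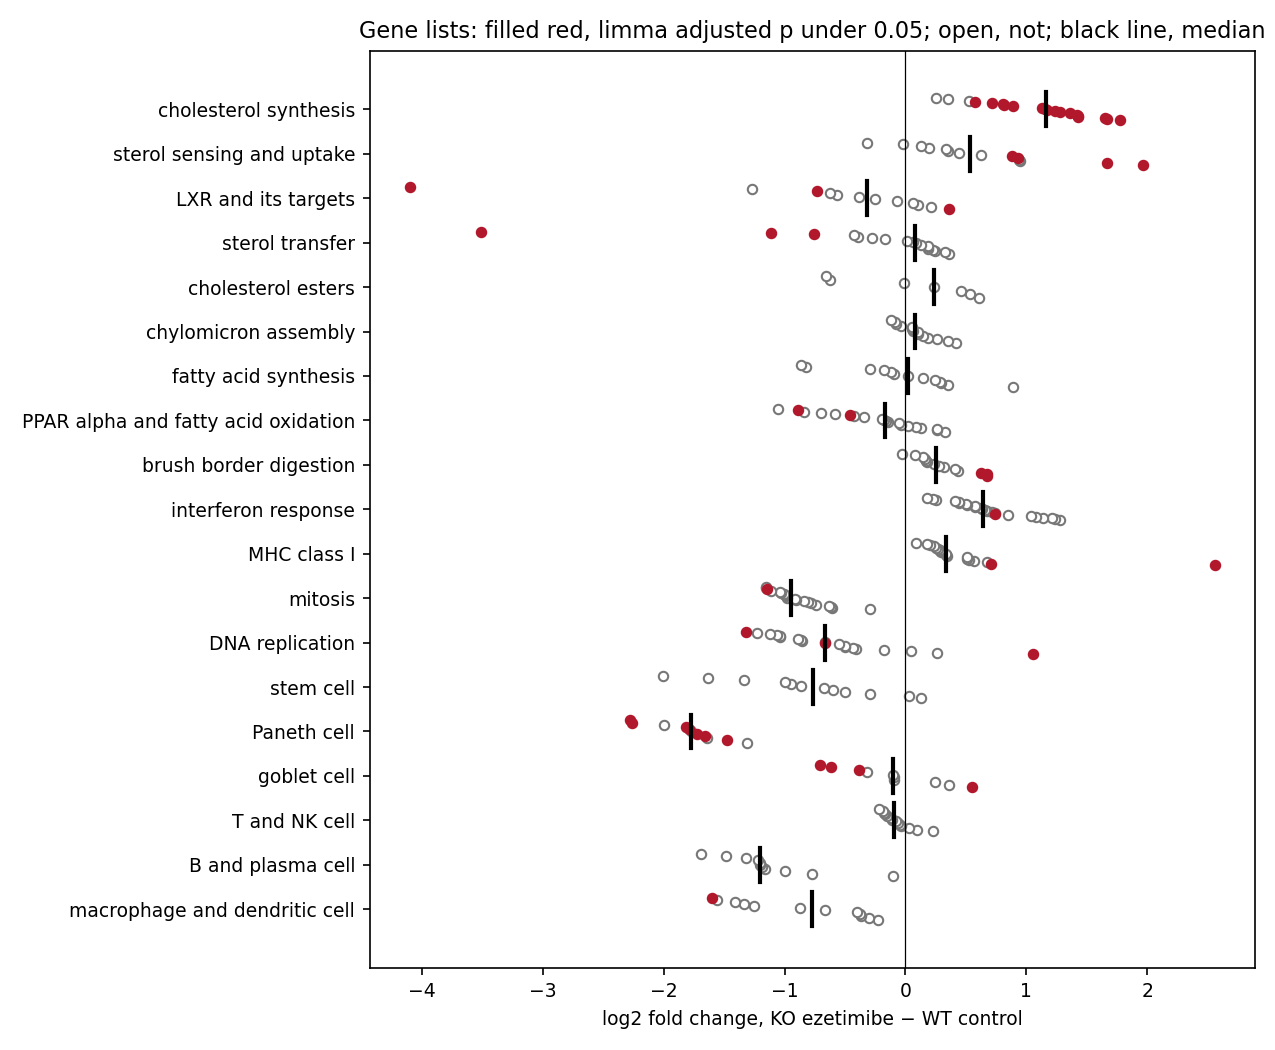
Log2 fold change of each tested gene in KO ezetimibe against WT control (horizontal axis) for 19 gene lists (vertical axis). Filled points passed the limma test, open points did not, and black lines mark medians, from 1.16 for cholesterol synthesis to −1.77 for Paneth cells.

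Markers of crypt cells were lower in KO ezetimibe. Most of the calls rested on a few libraries, whereas the list medians stayed negative when libraries were left out. Paneth cells sit at the crypt base and secrete antimicrobial peptides. Of 11 Paneth cell markers 7 fell, with a median of −1.77, and none was at 0. All 11 were lower at an unadjusted p under 0.05, and edgeR called 8 lower and DESeq2 11. Their sum was 23681 to 79966 normalised counts per library in WT control, above the 10298 to 17377 in KO ezetimibe. Lyz1, lysozyme, had 7736, 24782, 8884 and 25521 in WT control and 3964, 5371, 3194 and 4121 in KO ezetimibe. WT control replicates 2 and 4 were far higher than replicates 1 and 3, and the groups did not overlap (log2 fold change −1.82 ± 0.429, SE, limma adjusted p = 0.039). Itln1, an intelectin, and Mmp7, which activates defensins, fell by 1.47 and 1.73 in log2 (limma adjusted p = 0.0481 and 0.0447). The defensins Defa22 and Defa21 had log2 fold changes of −2.28 and −2.26 (limma adjusted p = 0.0236 and 0.0264), and Defa17 and Defa30 were also called, but defensin genes are near-identical copies among which reads may be split. None of the 11 was called without WT control replicate 2 or 4 or without KO ezetimibe replicate 1 or 3, and all 11 were called without WT control replicate 1, with medians from −2.09 to −1.53. None was called without WT control replicate 4 and KO ezetimibe replicate 3 together, at a median of −1.32, or with the mitosis score as a covariate, at a median of −0.60. Against the same WT control libraries the median over the 11 markers was −1.70 for KO control and −1.12 for WT ezetimibe. Its mean log2 level in WT ezetimibe replicates 2 and 4 (10.58 and 9.69) was above that of WT control replicate 1 (9.49), so those groups overlapped. In bulk tissue, fewer cells of a type and less RNA per cell cannot be told apart.

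Proliferation genes were in part lower too. Of 20 mitosis genes all had negative fold changes with a median of −0.95, and 1 fell, Knl1, a kinetochore protein, by 1.15 in log2 (limma adjusted p = 0.0355). Of the 20, 18 were lower at an unadjusted p under 0.05, edgeR called 3 lower and DESeq2 15. Without WT control replicate 4 and KO ezetimibe replicate 3 together none was called, at a median of −0.58. The median of the mitosis list was −1.34 with Aster loss alone and −0.27 with ezetimibe alone. Mki67, which marks cycling cells, had 483, 924, 546 and 1177 in WT control and 456, 478, 389.97 and 329 in KO ezetimibe, where WT control replicates 2 and 4 again stood out (log2 fold change −0.84, limma adjusted p = 0.0767). The mitosis markers summed to between 2125 and 5382 in WT control and between 1541 and 2127 in KO ezetimibe. Knl1 was called in 2 of the 8 fits, those without WT control replicate 1 or 3 (values −1.30 to −0.94), and without WT control replicate 1 the list had 16 calls. Of 20 DNA replication genes 2 fell, Mcm6 (−0.66) and Tyms (−1.32, limma adjusted p = 0.0428 and 0.0429), and Ccne2 rose. Mcm6 and Tyms were called in the same 2 fits as Knl1, with values of −0.78 to −0.58 and −1.48 to −1.05. None of 12 stem cell markers passed in limma or edgeR (median −0.77, 7 lower at an unadjusted p under 0.05, 3 called by DESeq2), and Olfm4, a stem cell marker of the crypt base, stood at −1.33 (limma adjusted p = 0.0917).

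Goblet cell markers split. Agr2, a disulphide isomerase needed for mucin folding, had 3757, 4271, 3775 and 4106 in WT control and 2207, 2566, 3006 and 2636 in KO ezetimibe, with no overlap (−0.62 ± 0.108, SE, limma adjusted p = 0.0115), and it was called in each of the 8 fits. Spink4 (−0.70) and Galnt12 (−0.38) also fell, and Fcgbp, a mucus protein that binds IgG Fc, rose by 0.55 (limma adjusted p = 0.0276, 0.0428 and 0.0456). Each of these 3 was lost without WT control replicate 2, 3 or 4 or KO ezetimibe replicate 2 or 3, and in some cases others, with values from −0.86 to −0.61, −0.44 to −0.32 and 0.46 to 0.65. The 10 markers had a median of −0.10. Their sums were 135836 to 169302 in WT control and 165517 to 225175 in KO ezetimibe, and none was at 0.

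**Figure D5:**
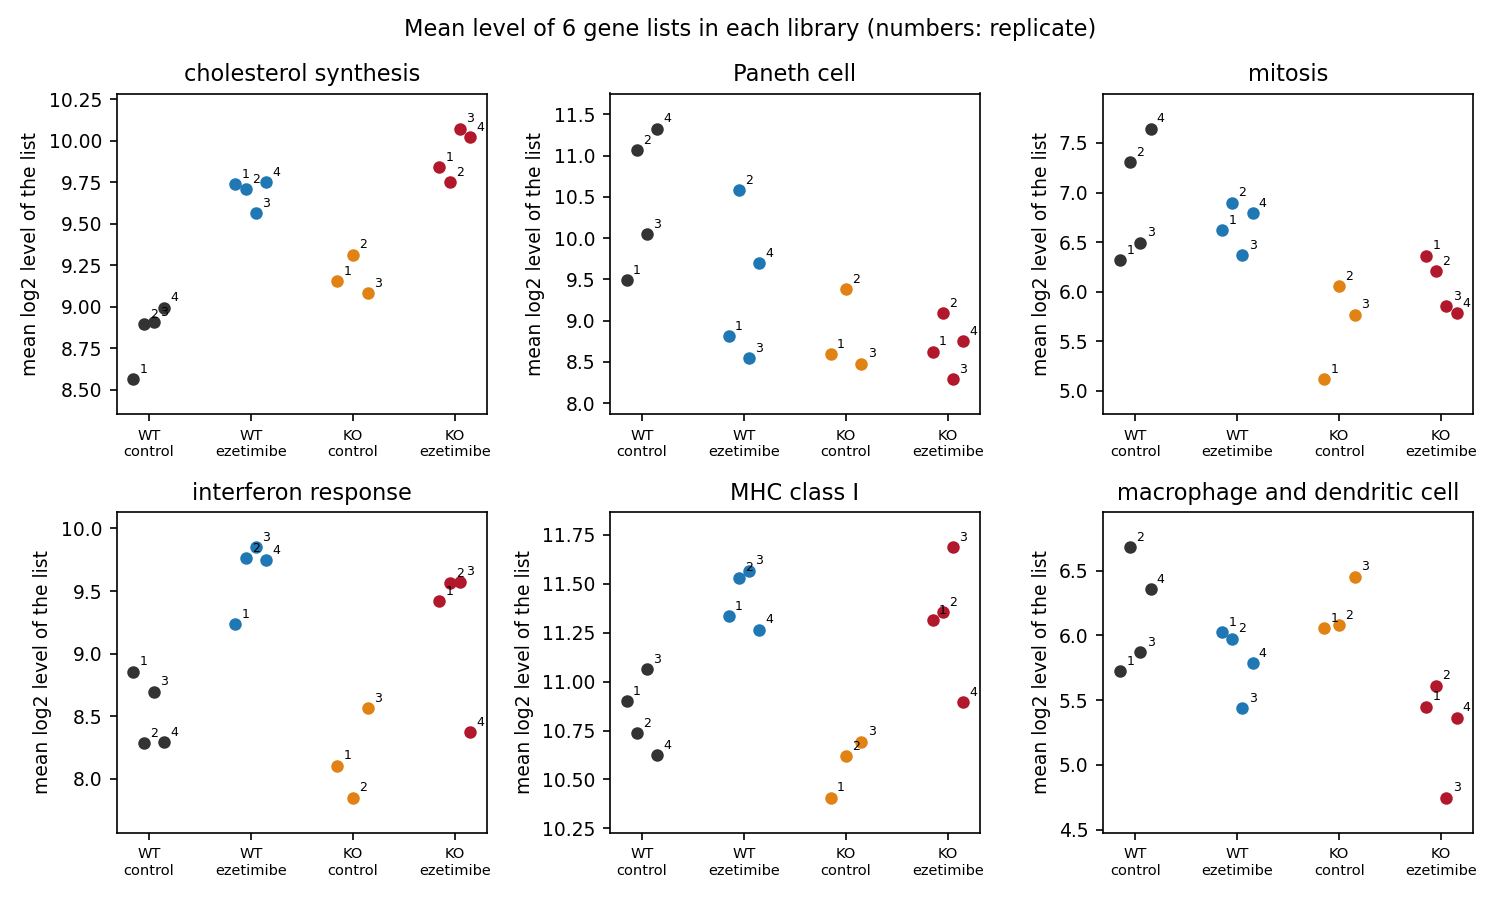
Mean log2 level of 6 gene lists (vertical axes) in each library by group (horizontal axes), with the replicate number beside each point. Cholesterol synthesis separates KO ezetimibe (9.75 to 10.07) from WT control (8.56 to 8.99), whereas the Paneth cell and mitosis levels of WT control are spread, with replicates 2 and 4 highest.

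Interferon response genes had a higher mean log2 level in KO ezetimibe replicates 1 to 3 (9.42, 9.56 and 9.58) than in any WT control library (8.29 to 8.86), but not in replicate 4 (8.37). All 24 interferon response genes had positive fold changes, with a median of 0.64, and 1 passed, Stat2, a subunit of the interferon-stimulated transcription complex, at 0.74 (limma adjusted p = 0.0428). Of the 24, 16 were higher at an unadjusted p under 0.05, edgeR called 3 higher and DESeq2 12. Ifit1, an interferon-induced RNA-binding protein, had 1086, 766, 705 and 588 in WT control and 2653, 2329, 2311 and 757 in KO ezetimibe, and replicate 4 of the latter lay among the WT control values (log2 fold change 1.24, limma adjusted p = 0.0529). With KO ezetimibe replicate 4 left out 12 of the 24 were called, with WT control replicate 1 left out 9, and with WT control replicate 2 or 4 or KO ezetimibe replicate 1, 2 or 3 left out none. Stat2 over the 8 fits ran from 0.58 to 0.91. The list's median was 1.21 with ezetimibe alone and −0.28 with Aster loss alone.

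Of 19 MHC class I genes 2 rose and all had positive fold changes, with a median of 0.34. The median of this list was 0.55 with ezetimibe alone and −0.13 with Aster loss alone. Its mean log2 level was 10.62 to 11.06 in WT control. KO ezetimibe replicates 1 to 3 lay above this range (11.32, 11.36 and 11.69), but replicate 4 did not (10.89). H2-Q10, a secreted class Ib molecule with near-identical relatives among which reads may be split, had 47.7, 73.6, 84.5 and 49.9 in WT control and 349, 409.6, 414 and 317 in KO ezetimibe. The groups were far apart, and H2-Q10 rose by 2.56 ± 0.283 in log2 (SE, limma adjusted p = 0.000189). WT ezetimibe libraries held 285 to 367 counts of H2-Q10 and KO control libraries 48.7 to 152. Tapbp, tapasin, which loads peptides onto class I molecules, had 3018, 3013, 3137 and 2845 in WT control and 4757, 4692, 5813 and 4417 in KO ezetimibe, with no overlap (0.70 ± 0.0919, SE, limma adjusted p = 0.000846). Both were called in each of the 8 fits, and 2 to 6 of the list were.

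Markers of immune and other cells were counted in the same way. None of 14 T and NK cell markers passed, and 0 had an unadjusted p under 0.05, with a median of −0.09 and sums of 4836 to 8068 in WT control and 5179 to 7110 in KO ezetimibe. None of 11 tested B and plasma cell markers passed at a median of −1.20 (1 at an unadjusted p under 0.05), where sums overlapped widely (10531 to 45768 and 5803 to 23520). Of 12 macrophage and dendritic cell markers all had negative fold changes, with a median of −0.77, and sums did not overlap (735 to 1617 and 437 to 697). In this list 7 were lower at an unadjusted p under 0.05, and 1 was called lower by edgeR and 4 by DESeq2. It had no call and a median of −0.61 without WT control replicate 4 and KO ezetimibe replicate 3 together, and no call and −0.33 with the mitosis score as a covariate. C1qc, a complement component made by macrophages, had 47.7, 127, 52.5 and 103 in WT control and 29.99, 26.8, 14.0 and 30.9 in KO ezetimibe, and was the only one called by limma (−1.60, limma adjusted p = 0.0293). It was lost without WT control replicate 2 or 4 or KO ezetimibe replicate 2 or 3, at −1.82 to −1.35 over the 8 fits. Adipocyte markers had a median of 1.94, none of 7 passed (1 at an unadjusted p under 0.05), and Adipoq was between 0 and 22.7 in WT control and between 10.7 and 19.3 in KO ezetimibe. The adipocyte median was 2.15 with Aster loss alone and −0.05 with ezetimibe alone. The mean log2 level of these markers ran from 2.57 to 6.43 in WT control and from 4.87 to 5.78 in KO ezetimibe. DESeq2 and edgeR also called 0 genes in the T and NK cell, B and plasma cell and adipocyte lists. No marker of these lists was at 0 in every library of either group. The part of these cell types in the other results was not tested.

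Outside these lists, the largest rises among well expressed called genes fell on single genes of several kinds. Aldoc, an isoform of the glycolytic enzyme aldolase, had 38.2, 81.7, 58.7 and 45.9 in WT control and 275, 223, 138 and 305 in KO ezetimibe, with no overlap (log2 fold change 2.04 ± 0.272, SE, limma adjusted p = 0.00103). Slc6a3, the dopamine transporter, had 36.3, 39.96, 35.0 and 36.7 in WT control and 144, 205, 113 and 169 in KO ezetimibe (2.03 ± 0.29, SE, limma adjusted p = 0.00188). Ces1g, a carboxylesterase with close relatives among which reads may be split, rose by 2.08 (limma adjusted p = 0.00174). These 3 were called in each of the 8 fits and showed full separation of the groups. With the mitosis score as a covariate Aldoc was still called (limma adjusted p = 0.0138), but Slc6a3 and Ces1g were not (limma adjusted p = 0.1 and 0.104).

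Other large values were carried by uneven libraries. Ankrd37, a hypoxia-responsive ankyrin protein, had 75.4, 39.1, 11.3 and 6.11 in WT control and 193, 134, 148 and 146 in KO ezetimibe, so the spread within WT control was large (2.77, limma adjusted p = 0.0265). It was lost without WT control replicate 3 or 4 or KO ezetimibe replicate 1 or 3, at 2.21 to 3.35. The immunoglobulin segment Igkv8-34 had 22.5, 232, 24.5 and 2.13 in KO ezetimibe and at most 2.06 in WT control (3.79, limma adjusted p = 0.0432, lost in 6 of the 8 fits, at 2.73 to 4.80). Another segment, Igkv1-117, fell by 3.60 in log2 (limma adjusted p = 0.0368, lost in 5 of the 8 fits, at −4.21 to −3.04). Of the 12 lowest fold changes, 8 belonged to defensins and 1 to Mptx2, a Paneth cell pentraxin that had 220, 713, 508 and 1386 in WT control and 99.6, 143, 104 and 108 in KO ezetimibe (−2.35, limma adjusted p = 0.0157). Mptx2 was lost only without WT control replicate 2, among the 8 fits, at −1.93 to −2.81.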

How the data were processed

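RNA of distal jejunum was sequenced in 15 libraries, grouped by labelled genotype and diet. The submitters' processing notes name STAR 2.6.0c, FastQC, DESeq2 and mm10. For the counter, strand setting and annotation, nothing is stated in the sources used here. The authors deposited DESeq2-normalised counts (a signal) for 26844 genes, per the file headers. Dividing each library by its smallest nonzero value gave whole numbers for 100% of values (tolerance 0.01), so reads were recovered. The deposited tables of the authors' own comparisons were not used.

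Genes reaching 10 in 3 or more libraries were tested by limma-trend (limma 3.58.1) on log2 values after a pseudocount of 1, with 4 group means over all 15 libraries, Benjamini-Hochberg adjustment over all 14299 genes and a threshold of 0.05. Called, rose and fell mean by this test. Files held normalised counts, so count tests on recovered reads (edgeR 4.0.16, DESeq2 1.42.0, limma-voom, in R 4.3.3) were alternatives, beside other pseudocounts, filters and scalings, the 2 groups alone, robust moderation, a replicate block and each library left out. Chosen after seeing the data were the fits without WT control replicate 4 and KO ezetimibe replicate 3 (extremes of principal component 1), with a mitosis score as covariate, and DESeq2 without a filter. The scripts were tested on simulated data. Coordinates are from GENCODE M21 (GRCm38, the mm10 assembly; 26825 IDs matched), and promoters from RefSeq. Figures were drawn with matplotlib 3.10.9.

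There were 38 gene lists (533 genes, 532 in the table, 505 tested). The members and lists were chosen with earlier results of these data known. Named genes are the Gramd1 genes and Npc1l1, the extremes of fold change among called genes whose group mean reached 50 (12 at each end), the 10 genes of smallest p, in each list the 6 of smallest p, the 6 of smallest interaction p, and any called gene within 2 Mb of a targeted gene; further genes, such as more members of a list, were picked with their values in view. Not all genes of this rule are reported here. No pair of libraries of a group agreed within sampling noise (mean chi-square per gene of at least 14.4). Samples with the same replicate number in WT control and KO ezetimibe had correlations of their deviations from −0.107 to 0.236. Samples with different numbers were not compared, so these values cannot decide whether the numbers mark pairs or a batch. The main fit used no pairing, and the replicate block was run as an alternative.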

Additional observations from a re-analysis of the deposited data

Results flagged for a closer look

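In 10 of 220 groups of 4 libraries looked at (the WT control and KO ezetimibe values of each named gene), 1 library lay apart from the other 3 by more than Dixon's 95% limit. Chance flags about 1 in 20 such groups. In WT control, Fdps was low in replicate 1 (15.3 normalised counts, against 29.1 to 30.9 in the others), Fcgbp in replicate 2 (47942 against 61741 to 64613), Kansl1 in replicate 2 (457 against 535 to 550.02) and Cxcl16 in replicate 4 (295 against 322 to 326).

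In KO ezetimibe, replicate 4 was low for Ifit1 (757 against 2311 to 2653) and Mcm6 (236 against 285 to 296) and high for Erg28 (991 against 879 to 896), and replicate 1 was low for Insig2 (1013 against 1144 to 1151). Replicate 3 was high for both Gramd1a (243 against 184 to 185) and Gramd1b (2086 against 1744 to 1763). The Ifit1 value lay within the range of WT control, and the Gramd1b value below all 4 WT control libraries.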

How the results depend on the processing

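The number of genes called for KO ezetimibe against WT control was 496 and was within 1.5 times of that with pseudocounts of 0.5 and 5, a stricter filter, TMM scaling, robust moderation and edgeR. It was 216 without a filter, 263 with quantile normalisation, 249 with limma-voom, 53 with only the 2 groups compared and 1681 with DESeq2 (1665 without a filter). It was 47 without WT control replicate 4 and KO ezetimibe replicate 3 together and 32 with a mitosis score as a covariate. With 1 library left out it ran from 60 to 1987. The groups share replicate numbers, and the labels do not say whether a number marks a shared batch. A fit with the replicate number as a block called 2073 genes. The interaction called 0 genes, and 5 with DESeq2, 3 with DESeq2 without a filter and 4 with the mitosis score; with 1 library left out it called 0 to 1. The cause of these shifts was not tested. Calls that were higher made up 79.2% with only the 2 groups, 71.5% with limma-voom, 50.9% with the block, 81.2% with the mitosis score, 87.2% without those 2 libraries, 51.8% with DESeq2 without a filter and 46.7% to 87.3% with 1 library left out. For the named genes 2718 values kept their side of the threshold, 463 lost the threshold, 112 gained it and 0 called values reversed. Among the 2718 were 28 values of 8 uncalled genes that changed sign. Depth limits genes with few counts, and 3 or 4 libraries a group limit every estimate of spread.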

Other observations

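Lists without a place in the sections above gave few calls. Of 21 tested drug metabolism genes 1 fell, Gstm3, a glutathione transferase, from 3853 ± 798 normalised counts (SD, n = 4) in WT control to 1924 ± 626 (SD, n = 4) in KO ezetimibe (limma adjusted p = 0.036, lost in 6 of the 8 fits that left out 1 compared library, at −1.22 to −0.87). Of 12 immediate-early genes 1 rose, Btg2, an antiproliferative gene, by 0.62 (limma adjusted p = 0.0491, overlapping groups, lost in 5 of the 8 fits, at 0.52 to 0.75). Gcg, which encodes glucagon-like peptides in enteroendocrine cells, had 188, 316, 212 and 386 in WT control and 159.6, 129, 109 and 148 in KO ezetimibe, and was the 1 of 14 enteroendocrine markers called (−0.97, limma adjusted p = 0.036, lost in 5 of the 8 fits, at −1.13 to −0.78). No gene passed among 14 interferon-inducible GTPases, 16 clock genes, 10 bile acid genes, 8 carotenoid genes, 8 tuft cell markers, 9 Reg family genes and 20 oxidative phosphorylation genes, of which 3, 3, 2, 1, 3, 4 and 2 had an unadjusted p under 0.05. Over all tested genes 3857 of 14299 had such a p. None passed, and 0 had such a p, among 7 MHC class II genes, 16 stress response genes, 11 stroma genes and 10 mitochondrial DNA genes. In these lists edgeR called 2 genes, both GTPases, and DESeq2 5 GTPases, 2 tuft cell markers and 1 gene each of the clock, bile acid, Reg and oxidative phosphorylation lists.

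Near the targeted genes, 1 of 13 tested genes within 2 Mb of Gramd1b was called (Sc5d, higher) and 1 of 32 within 2 Mb of Gramd1c (Nepro, −0.77, limma adjusted p = 0.0494, lost in 7 of the 8 fits, at −0.90 to −0.66). Over all tested genes 3.47% were called. An unadjusted limma p under 0.05 was reached by 2 of the 13 and 8 of the 32, beside 3857 of 14299 over all genes. Acot1, a peroxisome proliferator-responsive thioesterase named after its values were seen, had 127, 147, 129.8 and 257 in WT control and 53.5, 83.6, 36.2 and 70.3 in KO ezetimibe (−1.43, limma adjusted p = 0.0326). It was lost in 4 of the 8 fits, at −1.60 to −1.19, and limma adjusted p was 0.243 without WT control replicate 4 and KO ezetimibe replicate 3 together and 0.517 with a mitosis score as a covariate. Its log2 fold change was 0.67 with Aster loss alone and −0.61 with ezetimibe alone, with an interaction of −1.49 ± 0.469 (SE, limma adjusted p = 0.681).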
